A study of Solanum lycopersicum with 6 samples.

Results

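The response of tomato leaves to prolonged heat was examined by setting 2 RNA-seq libraries of plants kept at 45 °C for 6 h against 2 libraries of plants taken at 0 h. These are 4 of the 6 libraries of one RNA-seq series of the study, whose other 2 libraries come from 1 h at the same temperature. Of the 35603 genes in the table, the comparison took in 19123, namely those for which 2 or more of the 6 libraries held 50 or more counts. All plants were Solanum lycopersicum of the processing-type cultivar M82, 4 weeks old and raised at 24 °C under 16 h of light. The fourth leaf was taken, and each biological replicate was a random pool of plants, so that spread between single plants was not measured. The labels record no transgene or other agent in any group. Heat stress (HS) was the only treatment, given in a climate chamber, and the 0 h plants received none. Plants left unheated for the same 6 h were not analysed here, so heat and time of day cannot be told apart in any value below. In bulk leaf RNA, fewer cells of a type and less RNA per cell cannot be told apart either.

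Heat unfolds proteins in the plant cell. Heat stress factors of class A are known to bind heat stress elements in promoters and to switch on chaperones, which are small and large heat shock proteins that hold or refold damaged proteins. In leaves this first wave is known to be fast and to subside as chaperones accumulate, while photosynthesis and growth are held back during long exposure. Many leaf genes, among them genes of light harvesting and of the circadian clock, also follow the hour of the day in plants that are not stressed.

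The table identifies genes by locus only and does not pair the identifiers with gene names. No gene model of the available tomato reference (SLM_r2.1) carries these identifiers, with 0 matches. Apart from β-actin, which the primer list of the study names, genes are therefore given by identifier and without a role. The lists prepared for heat shock proteins, the clock, photosynthesis, hormones and leaf cell types could not be applied, and the leaf label was not checked against markers. Coordinates are those of the M82 V1.0 assembly, and spans are those of its gene models. The libraries held 28369763 and 28374970 counts at 6 h and 25147160 and 25160755 counts at 0 h. Levels are in CPM, the counts of a gene scaled to a common library size, with the size of each library corrected by its TMM factor for composition, which was 1.14 and 1.22 at 6 h and 0.955 and 0.992 at 0 h.

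Most expressed genes stood at a different level after 6 h. Of the tested genes, 58.8% were called (edgeR, quasi-likelihood F test, adjusted p below 0.05 by Benjamini-Hochberg), with 5900 genes higher (30.9%) and 5350 lower (28.0%) at 6 h. Both 6 h libraries lay above both 0 h libraries in CPM in 41.2% of the tested genes and below both in 37.7%. Changes of at least 1 on the log2 scale were called for 13.6% of genes upwards and 10.1% downwards. The balance of directions depended on the scaling, since rises made up 52.4% of calls under TMM and 71.0% with library size alone. With RLE, another scaling for composition, they made up 48.8%, and in a DESeq2 fit 47.8%, so falls were then the more numerous. The median log2 fold change of all genes was 0.03 under TMM and 0.30 with library size alone, so a direction given below is one set against the rest of the transcripts in a library.

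Single genes are described first, and the plot of 8 genes by library shows their levels. The largest rise among genes with over 3 counts in each of the 4 libraries was that of Solyc07g055720.4, at 64126995 to 64128932 of chromosome 7 (plus strand). It held 3407 and 2773 counts at 6 h, against 4 and 6 counts at 0 h. Both 6 h libraries were far above both 0 h libraries, at 93.3 ± 17.9 CPM against 0.204 ± 0.0523 CPM (SD, n = 2 each). Its log2 fold change was 8.80 (SE 0.25, edgeR adjusted p = 6.8e-07). This was a late rise, because the 1 h libraries held only 94 and 80 counts, and 6 h exceeded 1 h by 4.77 on the log2 scale (SE 0.17, edgeR adjusted p = 5.2e-07).

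Solyc03g082420.3 had the next largest rise but another course. It occupies 48385205 to 48386291 of chromosome 3 (minus strand), where 1 short gene of the opposite strand overlaps its end. It held 21769 and 21146 counts at 6 h, against 65 and 94 counts at 0 h, and the groups did not overlap. The log2 fold change was 7.63 (SE 0.23, edgeR adjusted p = 9e-07), and the next rise in size, at 7.62, was close behind. At 6 h it reached 646 ± 44.1 CPM, against 1692 ± 33.0 CPM at 1 h (SD, n = 2 each), a difference of -1.39 on the log2 scale (SE 0.17, edgeR adjusted p = 0.00014). This gene was thus still induced at 6 h while already below its 1 h level.

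Under the same limit of over 3 counts in each of the 4 libraries, the largest fall was that of Solyc10g005080.3, a gene of 20132 bp near the start of chromosome 10, from 59032 to 79163 (plus strand). It held 101 and 151 counts at 6 h, against 9828 and 9628 counts at 0 h. An abundant transcript of the leaf at 0 h, at 398 ± 16.7 CPM, was thus at 3.77 ± 0.883 CPM at 6 h (SD, n = 2 each), which is -6.72 on the log2 scale (SE 0.18, edgeR adjusted p = 5.4e-07). The 1 h libraries lay between, with 423 and 356 counts, and the fall continued after 1 h, by -2.01 (SE 0.17, edgeR adjusted p = 1.9e-05).

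Solyc12g098590.3, at 69291859 to 69294027 of chromosome 12 (plus strand), fell next most. It held 27 and 20 counts at 6 h, against 1047 and 1707 counts at 0 h, a change of -6.30 on the log2 scale (SE 0.29, edgeR adjusted p = 3.4e-06). Most of this fall was present at 1 h, with 42 and 33 counts, and 6 h lay below 1 h with a log2 value of -1.05 (SE 0.37, edgeR adjusted p = 0.033). These 4 genes were ranked by the values that are given here, so their size is a description of the extremes.

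**Figure D1:**
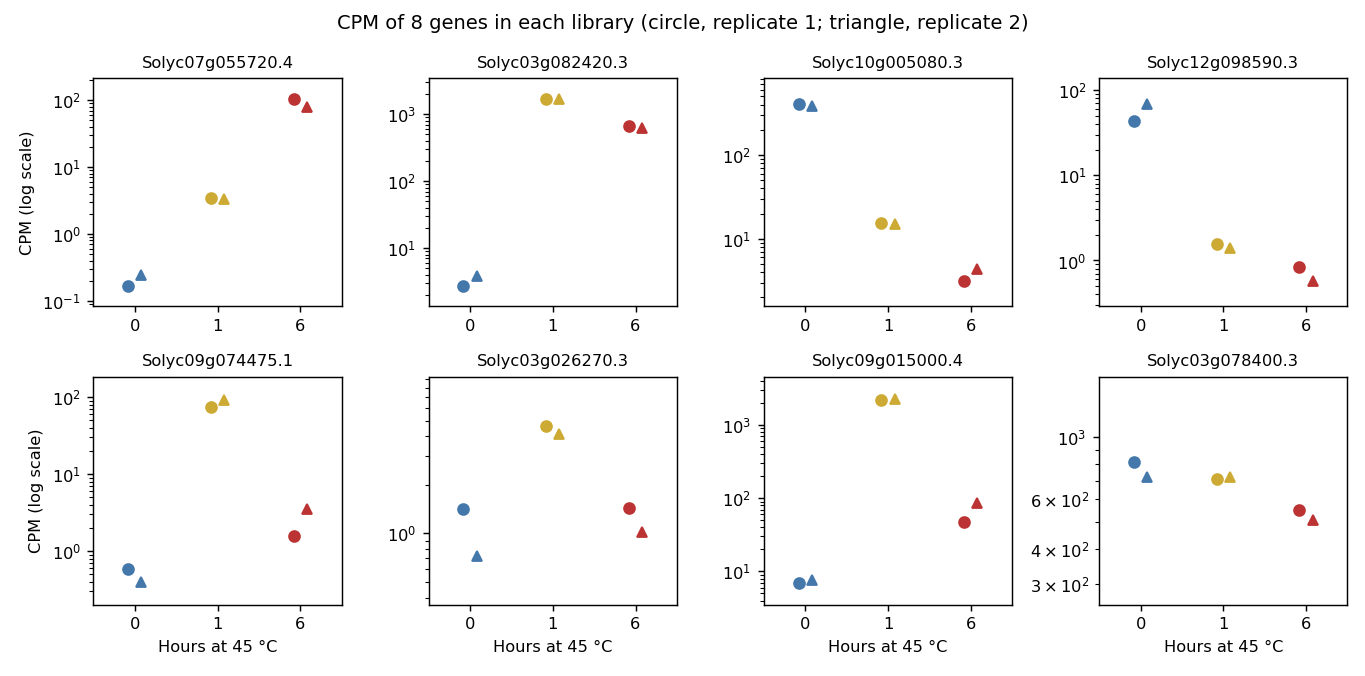
CPM (log scale, each panel with its own range) of 8 genes in each library against hours at 45 °C, with a circle for replicate 1 and a triangle for replicate 2. In the top row the 2 largest rises and the 2 largest falls among genes with over 3 counts in each of the 4 libraries of 6 h and 0 h show 6 h libraries far from the 0 h libraries. In the bottom row the genes of the study that were matched to a locus peak at 1 h, except β-actin (Solyc03g078400.3), which is lowest at 6 h.

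Of the genes that the study itself names, those that could be matched to a locus were then followed to 6 h. HSFA2 and HSFA1a, which its text gives by symbol, were not matched and are not described. Solyc09g015000.4, read here as the gene that the primer list of the study gives with 1 digit fewer, occupies 7536107 to 7537148 of chromosome 9 (plus strand). It held 1543 and 2934 counts at 6 h, against 168 and 190 counts at 0 h, so both 6 h libraries were above both 0 h libraries. The rise at 6 h was 9.10-fold, or 3.19 on the log2 scale (SE 0.28, edgeR adjusted p = 4.8e-05). It was a remainder of the 1 h level, with 6 h at -5.06 relative to 1 h on the log2 scale (SE 0.29, edgeR adjusted p = 3.3e-06).

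Solyc09g074475.1, for which the study examined a distal contact, occupies 62649309 to 62650158 of chromosome 9 (plus strand). It held 50 and 122 counts at 6 h, against 14 and 10 counts at 0 h. The 2 libraries of 6 h stood apart from each other, at 1.56 and 3.55 CPM, yet both exceeded the 0 h libraries, at 0.584 and 0.401 CPM. The log2 fold change was 2.38 (SE 0.47, edgeR adjusted p = 0.0029), and leaving out a 6 h library moved it from 1.65 without replicate 2 to 2.84 without replicate 1. The 1 h libraries held 2029 and 2175 counts of this gene. Relative to 1 h, 6 h was at -5.01 on the log2 scale (SE 0.30, edgeR adjusted p = 3.9e-06).

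Solyc03g026270.3, at 3679642 to 3680259 of chromosome 3 (plus strand), held 46 and 35 counts at 6 h, against 34 and 18 counts at 0 h. Its groups overlapped in CPM, with 1.43 and 1.02 at 6 h and 1.42 and 0.722 at 0 h. The difference of 0.19 on the log2 scale (SE 0.38, edgeR adjusted p = 0.68) did not exceed the spread between libraries. In the same gene 6 h was lower than 1 h, at -1.84 on the log2 scale (SE 0.34, edgeR adjusted p = 0.0014).

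β-actin is a protein of the cytoskeleton whose transcript is often taken as an internal standard in qPCR. It was the fourth gene of the study matched to a locus (Solyc03g078400.3, 46846329 to 46849552 of chromosome 3, plus strand). The primers that the study lists for it are shown because such a use rests on a stable level of the transcript. Their use in the study is not given in the sources used here. Both are written 5′ to 3′.
β-Actin-FP: ctctacatacttgagaggtgcc
β-Actin-RP: agacgaggagaaaacatcacaa
In the RNA-seq libraries β-actin held 549 and 506 CPM at 6 h, against 818 and 720 CPM at 0 h. Both 6 h libraries were below both 0 h libraries. The log2 fold change was -0.54 (SE 0.14, edgeR adjusted p = 0.012), so that 0 h stood 1.46-fold above 6 h. The sign held under every alternative run, but the call was lost with library size as the only scaling, at -0.27, and without replicate 1 of 0 h, at -0.45. At 1 h the difference from 0 h was -0.11 (SE 0.14, edgeR adjusted p = 0.54), and both comparisons use the same 0 h libraries. The fall at 6 h was not particular to β-actin. In the most abundant of 10 level classes, to which it belongs, 55.4% of genes were called lower at 6 h, with a median log2 fold change of -0.43.

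Changes of at least 5 on the log2 scale were called for 43 rises and 23 falls. Of these, 21 of the rises and 10 of the falls had at most 3 counts in both libraries of the lower group, and their fitted folds depend on the prior count. Rises of this size took opposite courses after 1 h. In 23 of the 43 genes, 6 h was called higher than 1 h, and at 0, 1 and 6 h their median levels were 0.203, 1.70 and 12.7 CPM. In 19 others, 6 h was called lower than 1 h, and the medians at 0, 1 and 6 h were 0.0409, 59.9 and 2.60 CPM. The remaining gene was not called between 6 h and 1 h. The first kind held spans with a median of 2045 bp and the second kind spans with a median of 1383 bp. At 6 h the second kind ran from 0.282 to 646 CPM. Of all tested genes, 290 passed the filter through their 1 h counts alone, of which 39 were called higher and 68 lower at 6 h. In any such gene a peak at 1 h was set by the filter. Another 580 genes passed through their 6 h counts alone, of which 498 were called higher at 6 h. In any of these, 6 h counts above those of 1 h were set by the filter.

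Falls of this size mostly continued after 1 h. In 18 of the 23 genes, 6 h was below 1 h as well as below 0 h, with medians of 14.0, 2.54 and 0.0986 CPM at 0, 1 and 6 h. In the other 5 no difference between 6 h and 1 h was called, and medians over the 3 times were 10.1, 0.302 and 0.109 CPM, in the same order. No gene of the 23 was called higher at 6 h than at 1 h. The genes differed in their state at 1 h, where the log2 fold change against 0 h ran over the 23 falls from -9.22 to 2.89. It was above 0 in 5 of them, 1 of which was called higher at 1 h by edgeR, and below 0 in 18, of which 17 were called lower. All 43 rises lay above 0 at 1 h, 40 of them called. Rises and falls were both selected against the same 0 h libraries that enter the 1 h values. Their sign at 1 h is thus no independent result. In genes that passed the filter through their 1 h counts alone, a 1 h level above 0 h was set by the filter, for falls as for rises.

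**Figure D2:**
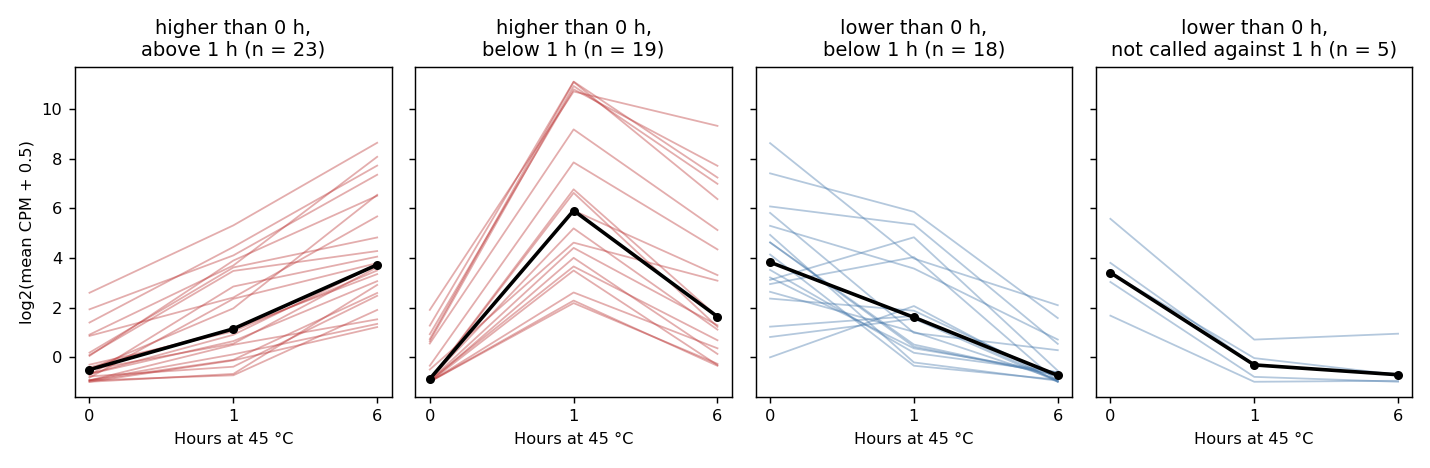
Level of single genes at 0, 1 and 6 h at 45 °C, as log2 of the mean CPM of 2 libraries plus 0.5, for genes called higher or lower at 6 h against 0 h by at least 5 on the log2 scale (thin lines, 1 gene each; black line, median of the panel). The 23 rises in the left panel are highest at 6 h, the 19 rises in the next panel peak at 1 h, and the falls in the right panels are lowest at or near 6 h; 1 rise not called between 6 h and 1 h is not drawn.

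The same was counted for smaller changes. Of the 2599 genes higher by at least 1 at 6 h, 1681 (64.7%) were also called higher at 6 h than at 1 h, 368 (14.2%) were called lower than at 1 h and 550 (21.2%) were not called between the 2 times. Over all tested genes, 34.7% were higher and 31.7% lower at 6 h than at 1 h. The median log2 fold change of these 2599 genes was 1.57 at 6 h, against 0.77 at 1 h over 0 h. Of the 1940 genes lower by at least 1, 1093 (56.3%) were called lower at 6 h than at 1 h, 244 (12.6%) higher and 603 (31.1%) were not called. Their median was -1.43 at 6 h, against -0.88 at 1 h over 0 h. All these values share the 6 h or the 0 h libraries, so they are given side by side and not as a test. The limits of the filter given above hold for them too.

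Some transcripts passed between absence and presence. In 13 genes both 0 h libraries held at most 3 counts and both 6 h libraries at least 50. Their 6 h counts were between 51 and 537. Against a floor of 3 counts in each 0 h library, these genes were at least 14.3-fold to at least 131-fold higher at 6 h. Most had already appeared at 1 h at a lower level. Only 1 of the 13 was still at 3 counts or fewer in each 1 h library, in all 13 both 1 h libraries held more counts than either 0 h library, and in 10 both 1 h libraries held under 50 counts.

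A minus-strand gene of chromosome 12, from 38215625 to 38219351, was at 0 and 0 counts at 0 h. It held 286 and 177 counts at 6 h, against 1 and 5 counts at 1 h, and was at least 57.2-fold higher at 6 h than the floor at 0 h. A plus-strand gene of chromosome 4, from 63320314 to 63322785, held 537 and 534 counts at 6 h, against 2 and 3 counts at 0 h, and was at least 131-fold higher. The exception in course was a plus-strand gene of chromosome 4, from 62368414 to 62371467. It held 258 and 371 counts at 6 h and 1 and 1 counts at 0 h, whereas the 1 h libraries held 1692 and 1373 counts.

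The reverse was seen in 5 genes, with at most 3 counts in both 6 h libraries and at least 50 in both 0 h libraries. They were at least 29.7-fold to at least 333-fold lower at 6 h. The largest of these falls was at a gene of 1861 bp on the minus strand, at chromosome 8 from 64209129 to 64210989, with 0 and 1 counts at 6 h, against 519 and 958 counts at 0 h. It held 7 and 11 counts at 1 h. A plus-strand gene of chromosome 1, from 79554659 to 79561501, held 0 and 0 counts at 6 h, against 216 and 158 counts at 0 h. In both genes, and in the other 3, the 1 h libraries held under 50 counts each. These 18 genes were selected by their counts at 6 h and 0 h. The folds are lower bounds only in that the lower group held at most 3 counts in each library. They do not allow for counting error or for spread between libraries.

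The distribution of counts over genes was flatter at 6 h. The 100 most abundant genes of each library took 13.1% and 11.6% of the counts at 6 h, against 16.3% and 15.9% at 0 h. The 1000 most abundant took 39.7% and 37.1% at 6 h, against 46.1% and 44.8% at 0 h. To reach 50% of the counts, 1748 and 1984 genes were needed at 6 h, against 1238 and 1326 genes at 0 h. The groups did not overlap in any of these measures. With groups of 2 libraries an exact permutation test of such a value cannot go below p = 0.333, and none was run. The 1 h libraries lay with or beyond those of 0 h, with 16.7% and 17.3% in the 100 most abundant genes.

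**Figure D3:**
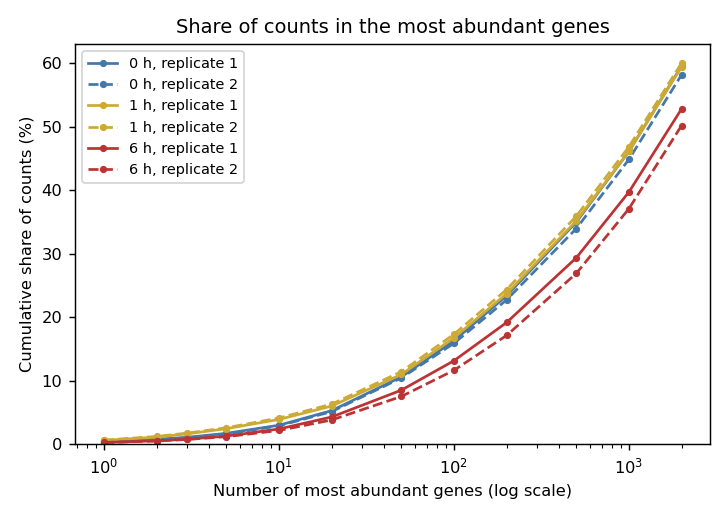
Cumulative share of the counts of tested genes (%) against the number of most abundant genes (log scale), ranked within each library, for 0, 1 and 6 h with a solid line for replicate 1 and a dashed line for replicate 2. Both 6 h libraries run below the other 4, with 39.7% and 37.1% in 1000 genes, and replicate 2 of 6 h is the lowest.

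Direction followed the level of expression. When genes were placed in 10 equal classes by their mean CPM over the 6 libraries, 17.8% of the most abundant class (109 CPM and over) were called higher and 55.4% lower at 6 h. In the least abundant class (up to 2.99 CPM) 37.7% were called higher and 15.4% lower. The median log2 fold change was -0.43 in the most abundant and 0.43 in the least abundant class, against 0.03 over all tested genes. Of the 100 most abundant genes, 70 were called lower and 20 higher. The difference of 0.86 between the outer classes was between 0.73 and 1.00 in every fit, and both ends came with a library left out. A change of scaling shifts all genes nearly alike, so the scalings could not test this difference. With library size alone the most abundant class still held more falls (39.9%) than rises (26.3%).

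The filter adds to the rises of weak genes, since 580 genes passed through their 6 h counts alone, of which 498 were called higher, and 94 passed through their 0 h counts alone, all called lower. The order was therefore repeated with the level taken from the 1 h libraries, among genes with at least 50 counts in both of them. In the highest of these classes 20.5% of genes were called higher and 52.1% lower at 6 h. In the lowest, 31.4% were called higher and 17.4% lower. Levels per kb of span gave 24.0% higher and 47.4% lower in the highest class, against 36.7% higher and 15.2% lower in the lowest. Over 10 classes of span, rises lay between 28.1% and 35.8% and falls between 23.1% and 30.3%, without a steady order from short to long.

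**Figure D4:**
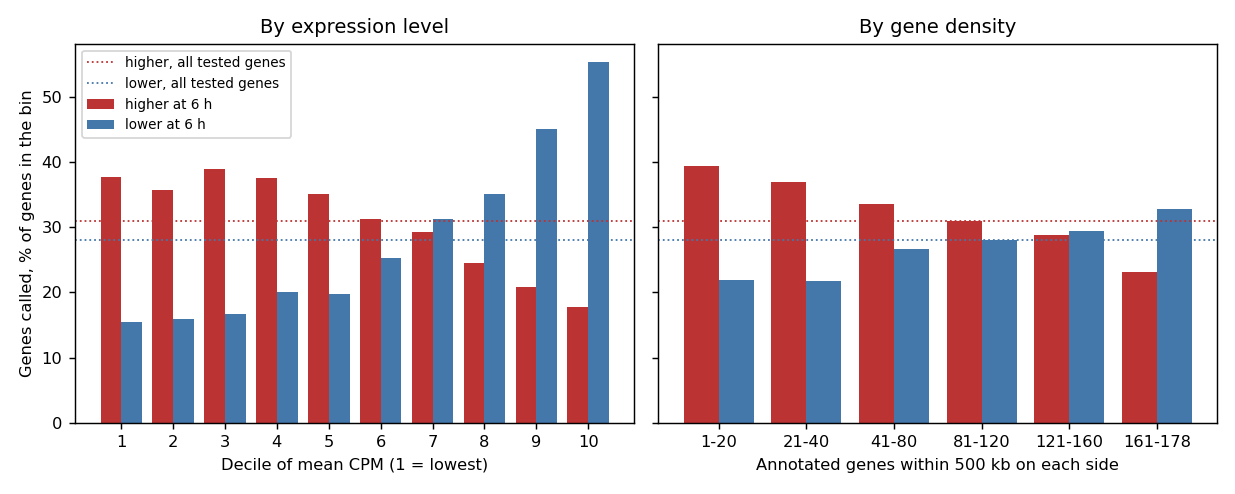
Share of genes called higher or lower at 6 h against 0 h (% of the genes in each class; edgeR, adjusted p below 0.05), by decile of mean CPM over the 6 libraries (left) and by the number of annotated genes within 500 kb on each side (right); dotted lines give the shares over all tested genes, 30.9% higher and 28.0% lower. Falls grow to 55.4% in the most abundant decile, and rises grow to 39.5% in the gene-poorest class.

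Position in the genome was related to direction as well. In tomato, genes are dense towards the ends of chromosomes, and the long middle parts are poor in genes. Among the 1097 tested genes with at most 20 annotated genes within 500 kb on each side, 39.5% were called higher and 22.0% lower at 6 h, with a median log2 fold change of 0.23. Among the 509 genes in the densest class, with 161 to 178 genes in the same window, 23.2% were called higher and 32.8% lower, with a median of -0.09. The classes between followed the same order for rises. All tested genes stood at 30.9% higher and 28.0% lower.

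The gene-poorest class had a median level of 17.0 CPM, against 23.5 CPM in the densest class, so the relation was examined within 3 level classes of equal size. In the low class, 45.7% of genes with at most 40 neighbours were called higher, against 33.8% of genes with over 120. In the middle class the shares were 39.0% and 31.6%, and in the high class 27.0% and 20.6%. Falls went the other way in each class, at 37.7% in sparse regions and 45.2% in dense regions for the high class. Genes near each other are not independent, so no test was made of these shares. Over whole chromosomes, rises lay between 27.9% of genes on chromosome 10 and 33.6% on chromosome 11. Falls lay between 24.3% on chromosome 11 and 31.8% on chromosome 5.

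Several of the most abundant transcripts of the leaf came from a row of 8 genes on chromosome 2, from 40129987 to 40152581, all on the plus strand and all with a span of 798 bp. The row came from a search of the annotation for at least 4 consecutive genes whose spans differ by at most 5% from 1 to the next, which used no counts. It was singled out after its values were seen, as the row with the highest level, and its last gene was added for its equal span. The 8 genes together held 0.935% and 0.628% of all counts of tested genes at 6 h, against 1.80% and 1.76% at 0 h. Each of them ranked among the 32 most abundant genes at 0 h.

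All 8 genes were called lower at 6 h, but to unequal degrees. The first gene of the row held 1660 and 1198 CPM at 6 h, against 2558 and 2570 CPM at 0 h, a log2 change of -0.84 (SE 0.20, edgeR adjusted p = 0.0066). The fifth, from 40144417 to 40145214, held 229 and 102 CPM at 6 h, against 2113 and 1873 CPM at 0 h, a log2 change of -3.59 (SE 0.35, edgeR adjusted p = 8.4e-05). The third gene held 732 and 332 CPM at 6 h, against 2241 and 2113 CPM at 0 h, a log2 change of -2.03 (SE 0.33, edgeR adjusted p = 0.00098). In each gene the 6 h libraries lay below the 0 h libraries without overlap.

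The middle genes of the row fell most, since the second to the sixth had log2 fold changes between -1.74 and -3.59, and the first, the seventh and the eighth between -0.84 and -0.90. At 1 h these outer genes stood at 1488, 1666 and 1456 CPM, and no difference between 6 h and 1 h was called in them. The fifth gene held 1005 CPM at 1 h and fell further by 6 h, by -2.60 on the log2 scale (SE 0.34, edgeR adjusted p = 0.00022). Replicate 2 of 6 h was the lower in all 8 genes. Without replicate 1 of 6 h the third gene reached -2.71 and the fifth -4.29, and without replicate 2 they were at -1.57 and -3.12. Genes of equal span in a row may be near-identical copies, between which reads can be split or lost at a minimum mapping quality of 30, so the values of single copies are uncertain.

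**Figure D5:**
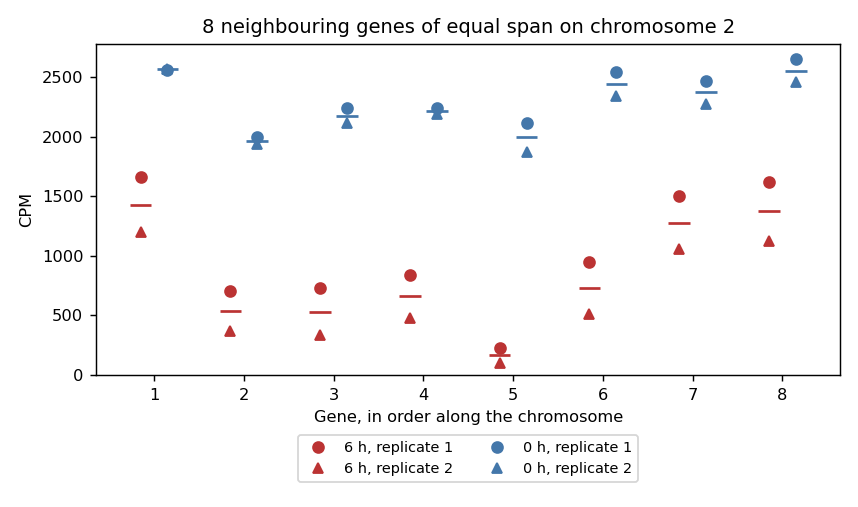
CPM of 8 neighbouring genes of 798 bp on chromosome 2, in their order along the chromosome, in the 6 h and the 0 h libraries (circle, replicate 1; triangle, replicate 2; line, mean of 2). All 0 h values lie above all 6 h values of the same gene, and the fifth gene is the lowest at 6 h, at 229 and 102 CPM.

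The same search gave 29 rows with 150 genes, of which 45 were tested. Of the 45, 24 (53.3%) were called lower and 4 (8.89%) higher, with a median log2 fold change of -0.84. Over all tested genes, 28.0% were lower and 30.9% higher. Without the 7 genes that the search gave for the row on chromosome 2, 17 of 38 (44.7%) were lower and 4 higher, with a median of -0.66. Together with that row, the one with the most tested genes was a row of 10 genes on chromosome 8, from 64108594 to 64170990, with spans between 2181 and 2265 bp. Of its 7 tested genes, 5 were called lower and none higher by edgeR, with a median of -1.31 and a median level of 39.9 CPM at 0 h. Of the other 6 rows with at least 3 tested genes, 2 had 2 genes called lower on chromosomes 4 and 8, each of 5 tested, and 4 had 1 gene called lower, of 3 or 4 tested. Sequences of the members of a row were not compared.

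Neighbouring genes were called in the same direction more often than the share of all genes. After a gene called higher by at least 1, the next tested gene on the chromosome was called higher by at least 1 in 21.0% of cases, against 13.6% of all genes. After a gene called lower by at least 1, the next was lower by at least 1 in 15.4%, against 10.1% of all genes. With neither gene in a row of equal span the shares were 21.0% for rises and 15.1% for falls. The shares differed with orientation and distance. For rises the share was 24.3% when both genes were on the same strand, 20.5% for divergent pairs and 13.6% for convergent pairs. On the same strand with a gap under 1 kb it was 35.2% of 233 pairs, and with a gap of at least 20 kb it was 20.9% of 292 pairs. For falls it was 18.3% on the same strand, and 11.8% for divergent and 12.6% for convergent pairs, near the 10.1% of all genes. After a fall, the next gene of a convergent pair was higher by at least 1 in 14.3%. On the same strand the falls gave 21.4% of 140 pairs with a gap under 1 kb and 14.6% of 185 pairs with a gap of at least 20 kb. Among pairs whose spans do not overlap, in any orientation, the shares were 21.0% for rises and 15.4% for falls.

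Runs of at least 5 consecutive tested genes that changed the same way by at least 1 were found at 6 loci for rises and 4 for falls. They were picked by their values and are described without a test. A run of falls on chromosome 2, from 40132303 to 40147620, lies within the row of equal span described above. Another, on chromosome 8 from 64119404 to 64200331, overlaps the row of equal span there. Neither adds to those rows, and the limit given above for reads of near-identical copies may hold for both. On chromosome 1, from 1554295 to 1570370, 5 genes in 16.1 kb rose by 2.00 to 3.83 on the log2 scale. Together they held 186 and 181 CPM at 6 h, against 29.1 and 19.4 CPM at 0 h. They had stood at 175 and 180 CPM at 1 h, and only 1 of the 5 was called between 6 h and 1 h. On chromosome 4, from 60191716 to 60214973, 5 genes rose with a median of 2.00. They held 414 and 478 CPM at 6 h, against 74.2 and 85.2 CPM at 0 h, and all 5 were higher at 6 h than at 1 h.

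A sparse region of chromosome 8 was of the same kind over a longer distance. From 29254328 to 29719712, a stretch of 465 kb with 7 annotated genes, all 5 tested genes rose by 1.19 to 3.29. They were weak, together at 26.4 and 31.0 CPM at 6 h, against 8.39 and 7.87 CPM at 0 h, and all 5 were higher at 6 h than at 1 h. The longest runs of falls had 6 genes. On chromosome 1, from 72594819 to 72708122, such a run held 70.8 and 65.5 CPM at 6 h, against 191 and 237 CPM at 0 h. Its genes fell mainly after 1 h, at which they held 205 and 207 CPM, and 5 of the 6 were lower at 6 h than at 1 h.

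The 2 libraries of 6 h differed in how much of the 1 h change they showed. Genes were grouped by their change at 1 h, which uses no 6 h library, and the 2 libraries of 6 h were compared within each class. Among 184 genes higher by at least 5 at 1 h, 75.0% stood higher in replicate 2 than in replicate 1 of 6 h, with a median difference of 0.29 in log2 CPM. Among 207 genes lower by at least 3 at 1 h, 21.7% stood higher in replicate 2, with a median difference of -0.37. Over all genes the share was 49.3% and the median 0.00. Single genes went either way, as Solyc09g015000.4 was higher and Solyc03g082420.3 and Solyc03g026270.3 were lower in replicate 2 of 6 h. The 0 h libraries differed along the same classes, which use them. In the 207 genes lower at 1 h, replicate 2 of 0 h was higher in 71.0%, with a median difference of 0.41, and in the 184 genes higher at 1 h it was higher in 36.4%, with a median of -0.01. The 6 h libraries also differed in the gap in median log2 fold change between the least and the most abundant classes. It was 0.94 without replicate 1 of 6 h and 0.73 without replicate 2 of 6 h.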

How the data were processed

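Deposited was a table of raw counts, 1 column for each library. According to its header the authors used featureCounts 2.0.0, reverse-stranded, over whole gene spans of the M82 gene models 1.1.0, at a mapping quality of at least 30, keeping multi-mapped reads and reads over several genes. Introns therefore add to counts, and copies in tandem can share or lose reads. The header names Bowtie alignments freed of duplicates, the methods name STAR, and whether reads or fragments were counted could not be settled.

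The 6 libraries entered one quasi-likelihood fit (edgeR 4.0.16, R 4.3.3, TMM scaling). P-values were two-sided and adjusted by Benjamini-Hochberg over 19123 genes. Standard errors (SE) were obtained as the absolute log2 fold change over the root of F. DESeq2 1.42.0, other scalings, filters and thresholds, a replicate block and single libraries left out were alternatives. P-values measure the spread between pooled samples.

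Members and lists were chosen with earlier results of these data known. The rule for named genes asked for annotated names, which could not be had. The 2 largest rises and 2 largest falls with over 3 counts in each of 4 libraries and groups that do not overlap are therefore given by identifier. Beside them stand the genes of the study that could be matched to a locus. Levels, gene density, rows of equal span and runs were chosen after the data were seen.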

Additional observations from a re-analysis of the deposited data

How the results depend on the processing

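The 5900 rises and 5350 falls stayed within 1.5 times of these numbers under every alternative run, with 3 exceptions. These were the falls with library size alone, and both the rises and the falls with a minimum fold change. With library size as the only scaling the falls numbered 3379, beside 8272 rises. With a minimum absolute log2 fold change of 1 there were 2599 rises and 1940 falls. DESeq2 stayed within that range, with 5144 rises and 5607 falls. Leaving out single libraries gave 4511 to 5361 rises and 4162 to 5525 falls. No gene called here was called in the opposite direction under another scaling, filter, tool or sample set. With a library left out, the difference in median log2 fold change between the least and the most abundant classes was 0.73 to 1.00. That between gene-poor and gene-rich surroundings was then 0.20 to 0.26. A change of scaling shifts all genes nearly alike and could not test either difference. Solyc03g026270.3 changed sign, with -0.07 without replicate 1 of 6 h, -0.26 without replicate 2 of 0 h, and 0.75 without replicate 1 of 0 h, and was not called in any fit.

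With the replicate number as a block, 5837 rises and 5280 falls were called, and 97.0% of the calls were shared. The deviations of same-numbered libraries of 6 h and 0 h had a correlation of -0.02 across genes, those of 1 h and 0 h -0.10 and those of 6 h and 1 h 0.20. Since these were not all above 0.1, the numbers were not taken to pair samples. The planned gene lists were not run, for want of gene names. The fit had 3 residual degrees of freedom, and a floor of 3 counts amounted to 0.0933 CPM or less at 6 h.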
